A study of Mus musculus with 6 samples.

Results

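Solute carriers are the membrane proteins that move amino acids, sugars, nucleosides, vitamins, metals, ions and mitochondrial metabolites across membranes, and their mouse genes carry Slc symbols made of a family number and a member number. The set described here holds every symbol of that form, Slc followed by a number, the letter a and a second number, with at least 50 counts in at least 3 of 6 RNA-seq libraries. Of 341 such symbols in the count tables, 5 named genes were left out by the rule, and 172 of the remaining 336 reached the threshold, out of 23420 genes in the tables. Of the 164 that did not, 69 had 0 counts in all 6 libraries and 95 had a count in at least 1. The pattern requires the letter a, so that of the nucleotide-sugar family, Slc35, only the subfamily named with that letter is included.

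The libraries came from LSK cells of mouse bone marrow, a sorted fraction without lineage markers and with Sca-1 and c-Kit on the surface, in which the blood-forming stem cells and early progenitors are found. There was 1 library from each of 3 bcat(ex3)osb mice, here called mutants, whose osteoblasts had permanently active β-catenin signalling, and 1 from each of 3 wild-type (WT) littermates. The signalling was altered in the bone-forming cells and not by design in the sequenced cells. The sources used here do not give the promoter that restricts the allele to osteoblasts, the age of the mice or the number of cells per library, and the labels name each library as a separate mouse. Values of 3 mice are always given in the order mouse 1, 2 and 3, and CPM is the usual abundance unit of counts scaled to library size, here after correction for composition (TMM). In bulk RNA, fewer cells of a type and less RNA per cell cannot be told apart.

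Transport follows the membrane and the substrate. At the plasma membrane, amino acid exchangers such as the light chains of family 7 work as heterodimers with the heavy chain CD98 (Slc3a2), while glucose enters by facilitated diffusion through family 2 and lactate passes with protons through family 16. Family 25 spans the inner mitochondrial membrane and exchanges nucleotides, phosphate and metabolites between matrix and cytosol, whereas zinc leaves the cytosol through family 30 and enters it through family 39. Dividing progenitors are known to rely on glutamine and leucine uptake, on nucleoside salvage and on mitochondrial exchange of ADP and ATP.

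The 6 libraries held 15431235 to 19956774 counts, of which the 172 genes took 0.970% to 1.15%. Of 6 genes listed for the sorted fraction (Kit, Ly6a, Cd34, Flt3, Slamf1 and Mecom), all 6 had counts, summing to 2407 to 3010 CPM in mutants and 2302 to 3747 CPM in WT mice. Log2 fold changes were negative for 5 of them, with a median of -0.43, and Slamf1 was the scarcest, at 2.91, 2.58 and 4.599 CPM and 7.22, 3.18 and 3.55 CPM. Kit lay at 489.7, 345 and 725 CPM in the mutants and 1001, 323 and 719.7 CPM in WT mice. Ly6a, which encodes Sca-1, lay at 81.4, 65.9 and 75.6 CPM in the mutants and 148, 161 and 156 CPM in WT mice, without overlap. The mutant mouse 2 library stood apart from the other 5 on the first principal component of the 172 genes, at 11.02 against -4.83 to -0.615, with 56.8% of the variance. Y-linked counts put mutant mice 1 and 2 apart from the other 4 mice as male, so that mutant mouse 3 is the only mutant of the same sex as the WT mice, and genotype and sex are largely confounded. Of 9 granulocyte-monocyte marker genes, all 9 were higher without overlap in the mutants, with summed levels of 6356 to 11504 CPM against 1282 to 3175 CPM. Mast cell and basophil markers summed to 248 to 533 CPM in mutants against 176 to 206 CPM, with 3 of 8 higher without overlap. Of 8 measured macrophage markers, 5 were lower without overlap (18.2 to 77.8 CPM against 88.1 to 136). So were 7 of 8 interferon-induced genes (48.1 to 148 CPM against 203 to 332) and 2 of 8 B cell markers. The B cell markers summed to 541, 94.3 and 70.6 CPM in mutants and 548, 894 and 949 CPM in WT mice. Mutant mouse 1 was thus close to WT mouse 1 in that sum. Megakaryocyte markers summed to 62.0 to 162 CPM against 43.7 to 61.1, with 1 of 4 tested, Itga2b, higher without overlap. Itga2b lay at 45.7, 126 and 97.1 CPM in mutants and 25.2, 20.7 and 33.7 CPM in WT mice, while Pf4, Gp9 and Vwf overlapped. The sums overlapped for erythroid (7.75 to 21.5 CPM against 9.48 to 36.1) and neutrophil markers (34.3 to 129 against 14.7 to 152). So did those of T and NK cell markers (221 to 341 against 150.0 to 314), mostly from Nkg7. Nkg7 alone read 280, 341 and 217 CPM in mutants and 146, 310 and 205 CPM in WT mice. Hba-a1, a globin gene, was at 0 in every library, but the handling of reads with several map positions is not given. Only 7 of the 9 erythroid genes listed are in the counts. The part of these differences in any result below was not tested.

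Mitochondrial carriers made up the largest share of solute carrier RNA. Levels of different genes are compared here as FPKM, which divides the count by gene length and library total. The 38 members of family 25 held 47.9% of the FPKM summed over the 172 genes. Slc25a5, the ADP/ATP exchanger ANT2 and an X-linked gene, was the most abundant of all with a mean of 815 FPKM over the 6 libraries. It read 724, 1038 and 799.9 FPKM in the mutants and 692, 893 and 744 FPKM in WT mice, and was highest in the mouse 2 library of each genotype. Next came Slc25a3, the mitochondrial phosphate carrier, with a mean of 229 FPKM, Slc25a4, the ADP/ATP exchanger ANT1, with 212 FPKM, Slc25a39, a mitochondrial glutathione carrier, with 152 FPKM, and Slc25a1, the citrate carrier, with 118 FPKM.

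Outside the mitochondrion, the most abundant genes covered sugar, nucleoside, choline and glutamine transport. Slc50a1, a sugar transporter of the SWEET type, averaged 116 FPKM over the 6 libraries, and Slc29a1, the equilibrative nucleoside transporter ENT1, averaged 106 FPKM. Slc9a3r1, whose symbol names a scaffold protein and not a carrier, averaged 107 FPKM. Slc44a2, a choline transporter-like protein, averaged 100.4 FPKM, and Slc35a4, a member of the nucleotide-sugar family, averaged 98.8 FPKM. Slc1a5, the glutamine transporter ASCT2, followed with 93.3 FPKM. The summed FPKM of all 172 genes was 4384 ± 130 (SD, n = 3) in mutants and 4378 ± 71.6 (SD, n = 3) in WT mice, so that the 2 genotypes differed by less than the spread between mice.

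**Figure D1:**
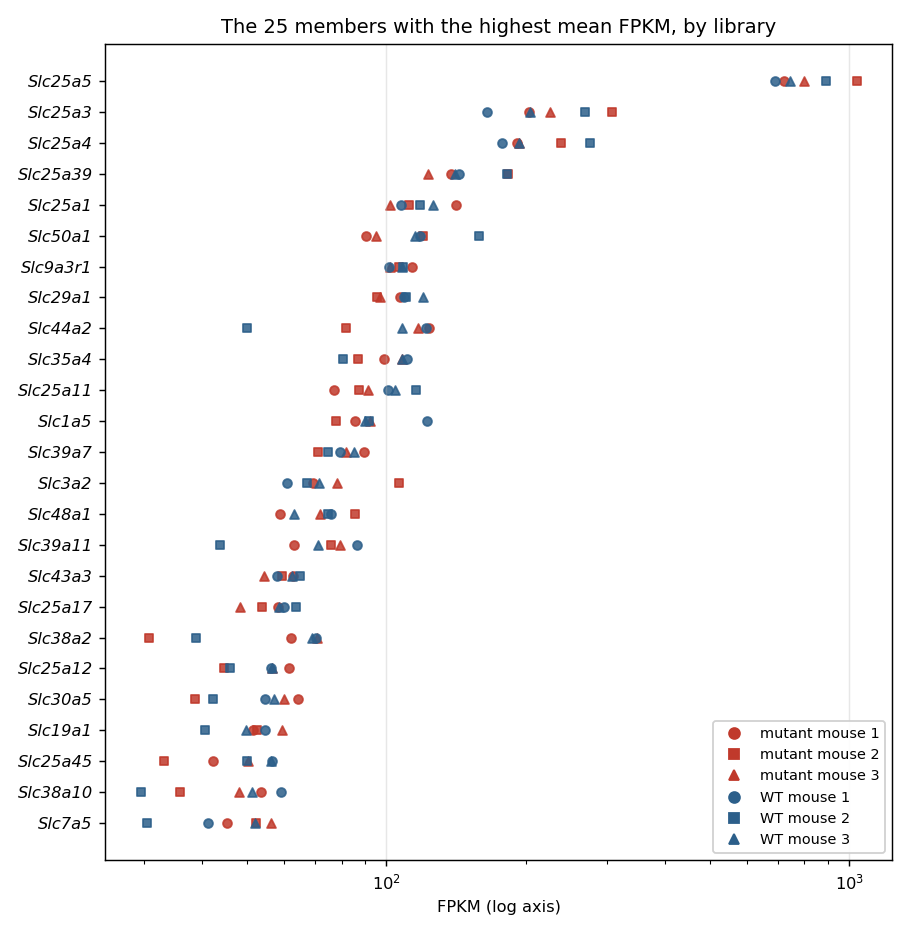
FPKM in each library (log axis) of the 25 solute carrier genes with the highest mean FPKM; colour gives the genotype and symbol shape the mouse. Slc25a5, with a mean of 815 FPKM, lies far to the right of Slc25a3 at 229 FPKM, and the colours intermingle in most of the genes.

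Other families were carried mainly by 1 or a few genes. In family 39, the zinc importers, Slc39a7, which releases zinc from the endoplasmic reticulum, averaged 80.3 FPKM, and in family 30 Slc30a5, which loads zinc into the secretory pathway, averaged 52.9 FPKM. Family 2 was led by Slc2a1 (GLUT1) with 24.6 FPKM and Slc2a3 (GLUT3) with 22.3 FPKM, and family 16 by Slc16a1 (MCT1) with 28.99 FPKM. Slc7a5 (LAT1) led family 7 with 46.2 FPKM, and its partner Slc3a2 averaged 75.6 FPKM. Slc38a2 led family 38 with 57.02 FPKM, Slc43a3, a purine base transporter, led family 43 with 60.4 FPKM, and Slc27a1, a fatty acid transporter, led family 27 with 23.4 FPKM. In all, 42 families had members, 19 of them at least 3 and 10 only 1.

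**Figure D2:**
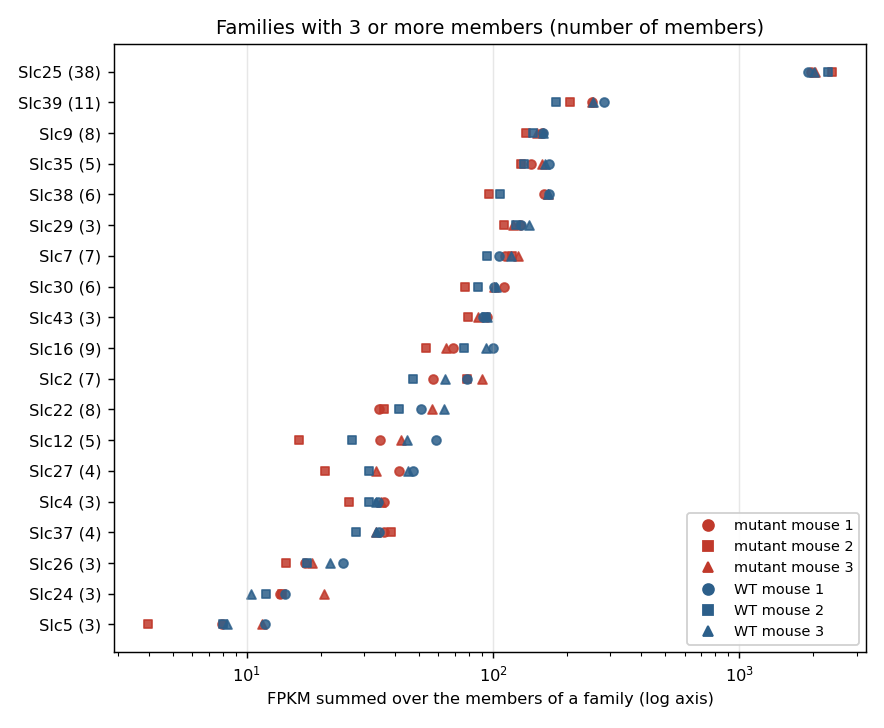
FPKM summed over the members of each family with at least 3 members (log axis, 1 point per library, number of members in brackets). Family 25 is the highest in all 6 libraries, with 47.9% of the FPKM summed over all 172 genes, and for most families the mutant and WT points overlap.

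Against WT littermates, no solute carrier gene reached an adjusted p under 0.05 in edgeR's quasi-likelihood test over 12653 genes, in which 0% of all genes tested did so in either direction. At an unadjusted p under 0.05 in the same edgeR test, 8 of the 172 genes were higher in mutants (4.65%, against 3.43% of all genes tested) and 4 were lower (2.33%, against 3.13%), 12 in all (6.98%, against 6.56%). The 3 mutant values all lay above the 3 WT values for 18 genes (10.5%, against 6.89% of all genes tested) and all below for 13 genes (7.56%, against 7.67%). By these counts the set lay near the background, with the share of higher genes without overlap above it. The counts depended on the scale, and the shares over all genes moved with them. On log2(FPKM + 1), which has no scaling for composition, 13 genes were higher (7.56%, against 4.99% of all genes) and 16 lower (9.30%, against 9.35%) without overlap. On both scales the higher share was above that of all genes and the lower share near it. With upper-quartile scaling the unadjusted p was under 0.05 for 5 higher (2.91%, against 2.81%) and 5 lower genes (2.91%, against 3.76%). Single mice also moved the counts: at that threshold 3 genes were higher without mutant mouse 3 (all genes 3.06%) and 5 without WT mouse 1 or WT mouse 3 (2.34% and 2.08%). Lower were 7 genes without mutant mouse 1 (4.39%), 2 without mutant mouse 2 (3.26%) and 1 without WT mouse 3 (1.73%). Fewer mice make separation easier, and without overlap 30 genes (17.4%, against 11.6% of all genes) were higher when mutant mouse 2 was left out. Without WT mouse 2, 25 genes were higher (14.5%, against 16.6% of all genes), a share below that of all genes. Lower were 23, 29 and 31 without mutant mouse 1, mutant mouse 3 and WT mouse 2 (all genes 13.8%, 13.3% and 17.6%). Log2 fold changes were positive for 91 of the 172 genes (52.9%, against 50.3% of all genes tested), and 9 were at least 1 in size (5.23%, against 7.97%). The median log2 fold change, mutant over WT, was 0.05 over the 172 genes and 0.00 over all genes tested, and without WT mouse 2 the set's median was -0.08. In DESeq2, 2 of the 172 genes passed an adjusted p under 0.05: Slc7a8 was higher (0.581% of the members, against 0.798% of all genes tested) and Slc16a11 was lower (0.581%, against 0.537%), together 1.16% against 1.34%. In limma-voom, as in edgeR, none of them and 0% of all genes passed. With 3 mice a side, the smallest two-sided p that an exact permutation test can reach is 0.1, so no such test is given for single genes.

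**Figure D3:**
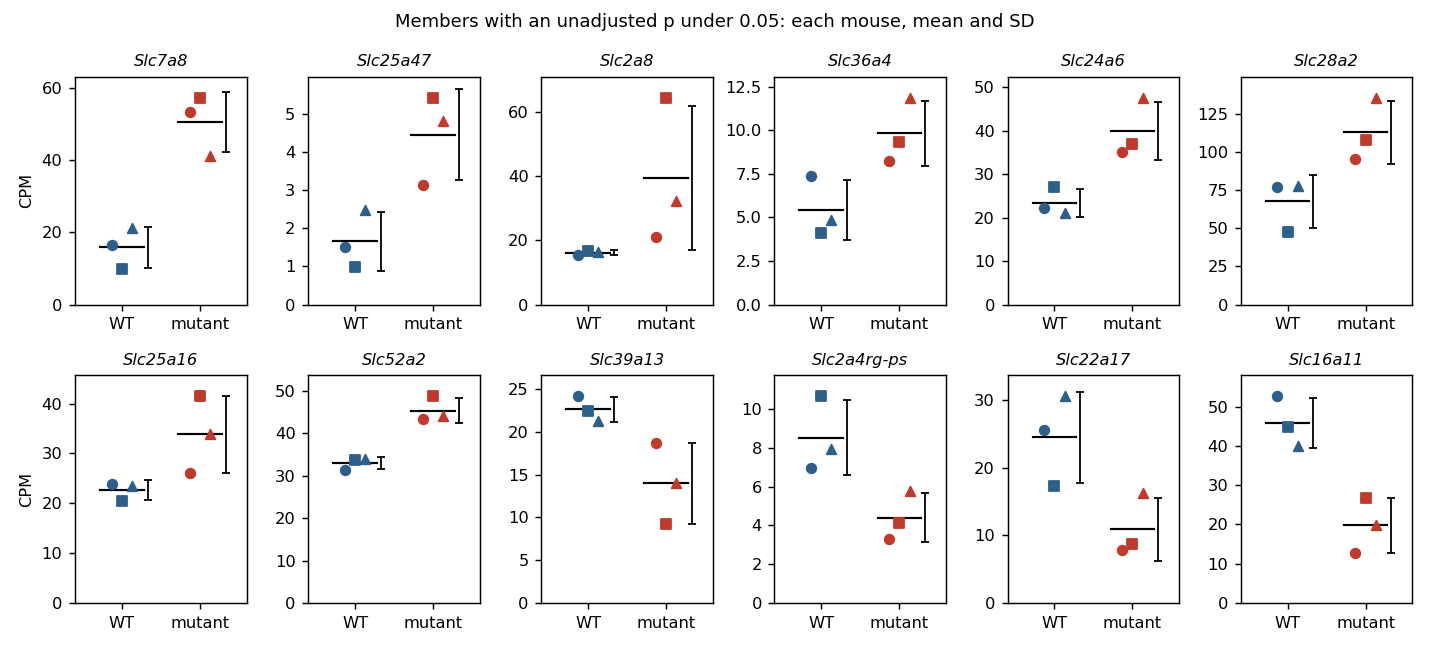
CPM in each mouse (points), with the mean (line) and SD (bar, n = 3 per genotype), of the 12 solute carrier genes with an unadjusted p under 0.05 in edgeR; each panel has its own axis from 0. The WT and mutant points do not overlap in any panel, and the widest gap for its level is in Slc7a8, at 53.4, 57.2 and 41.2 CPM in mutants against 16.4, 9.95 and 21.3 CPM in WT mice.

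Amino acid transport held the gene with the smallest p-value. Slc7a8 encodes LAT2, a light chain that pairs with the heavy chain Slc3a2 to exchange large and small neutral amino acids. It lies at chr14:54722209-54781946 (GRCm38, minus strand). Its level was 53.4, 57.2 and 41.2 CPM in the mutants and 16.4, 9.95 and 21.3 CPM in WT mice. Every mutant lay above every WT mouse, and the gap between mouse 3 of each genotype, the nearest pair, was wider than the whole range of the WT mice. The log2 fold change was 1.67 ± 0.31 (SE), a 3.18-fold higher level, with an unadjusted p of 6.65e-04 and an adjusted p of 0.314 in edgeR and an adjusted p of 0.000256 in DESeq2. Over all alternatives run, its log2 fold change stayed between 1.37 and 1.94. The 250 bases before the RefSeq start are printed for Slc7a8, Slc2a8 and Slc16a11, the genes with the smallest p-values among the amino acid, sugar and monocarboxylate carriers, with matches to CCAAT or GGGCGG on either strand in capitals. That of Slc7a8 (chr14:54781887-54782136, minus strand, GRCm38.p6, RefSeq) holds 1 GGGCGG:
Slc7a8: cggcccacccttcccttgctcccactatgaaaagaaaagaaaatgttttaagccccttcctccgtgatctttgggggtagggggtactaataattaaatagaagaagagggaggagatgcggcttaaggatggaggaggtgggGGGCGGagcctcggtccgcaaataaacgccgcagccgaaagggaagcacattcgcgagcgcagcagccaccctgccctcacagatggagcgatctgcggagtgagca

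The partner subunits of LAT2 and its closest relatives differed less. Slc3a2, the CD98 heavy chain, lay at 207, 349 and 226 CPM in the mutants and 171, 199.8 and 205 CPM in WT mice, which did not overlap, with the mutant mean pulled up by mouse 2. Its log2 fold change was 0.44 ± 0.24 (edgeR unadjusted p 0.102). Slc7a5, which encodes LAT1, the main leucine exchanger of dividing cells, lay at 159.7, 203 and 193 CPM in the mutants and 137, 107 and 177 CPM in WT mice. The 2 genotypes overlapped there, since mutant mouse 1 was below WT mouse 3, and the log2 fold change was 0.40 ± 0.23. Slc7a1, the arginine and lysine transporter CAT1, did not overlap, at 56.9, 61.2 and 49.3 CPM in mutants and 33.5, 45.97 and 43.7 CPM in WT mice (0.44 ± 0.21, edgeR unadjusted p 0.0667). Slc7a6, another light chain for basic and neutral amino acids, overlapped, at 65.5, 55.7 and 66.3 CPM and 69.1, 57.7 and 69.5 CPM. Slc7a4, a member without an established substrate whose exons overlap those of P2rx6 on the other strand, was at 12.01, 18.5 and 28.8 CPM in mutants and 42.6, 27.4 and 31.6 CPM in WT mice (-0.78 ± 0.35, edgeR unadjusted p 0.0559).

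The most abundant glutamine transporters overlapped between the genotypes. Slc1a5 lay at 237, 238 and 248 CPM in mutants and 319, 254 and 241 CPM in WT mice, with only WT mouse 1 outside the range of the other 5. Slc38a1 and Slc38a2, sodium-coupled glutamine transporters, had log2 fold changes of 0.20 ± 0.19 and -0.06 ± 0.32. Slc38a2 was low in mouse 2 of both genotypes, at 289, 157 and 320.5 CPM in mutants and 308, 180.3 and 310.4 CPM in WT mice. Slc38a9, the lysosomal arginine sensor that acts on mTORC1, lay at 26.4, 13.6 and 25.6 CPM in mutants, all below the 27.1, 31.5 and 30.7 CPM of WT mice (-0.44 ± 0.29). Slc38a6 was scarce and also did not overlap, at 2.75, 1.42 and 2.38 CPM against 2.86, 3.58 and 5.16 CPM. Slc36a4, a proton-assisted amino acid transporter related to the lysosomal Slc36a1, was at 8.24, 9.35 and 11.9 CPM in mutants and 7.37, 4.096 and 4.86 CPM in WT mice (0.85 ± 0.37, edgeR unadjusted p 0.0485, adjusted p 0.7596). Slc36a1 itself overlapped, at 6.62, 15.9 and 10.6 CPM and 5.87, 11.1 and 6.81 CPM. The leucine transporters Slc43a1 and Slc43a2 had log2 fold changes of -0.27 ± 0.27 and 0.13 ± 0.18, and Slc43a3 of 0.01 ± 0.18. Of the 22 genes in the amino acid families, 14 had a positive log2 fold change, edgeR's unadjusted p was under 0.05 for 2 higher and 0 lower genes, 4 were higher and 2 lower without overlap, and the median was 0.10. Over all genes tested 50.3% were positive, 3.43% higher and 3.13% lower by that p, and 6.89% and 7.67% without overlap, and the same shares stand behind the counts of the groups that follow.

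Among the sugar transporters, the glucose entry routes GLUT1 and GLUT3 did not separate the genotypes and an intracellular relative did. Slc2a1 lay at 47.5, 74.5 and 83.7 CPM in mutants and 66.7, 43.4 and 64.01 CPM in WT mice, and Slc2a3 at 71.01, 71.6 and 119 CPM and 131, 49.7 and 82.8 CPM. Both overlapped, with log2 fold changes of 0.24 ± 0.27 and -0.01 ± 0.37, and the sign of the second one turned under RLE scaling. Slc2a8 encodes GLUT8, a hexose transporter kept on internal membranes, and lies at chr2:32972990-32982083 (GRCm38, minus strand). It was at 21.2, 64.3 and 32.3 CPM in mutants and 15.4, 16.6 and 16.5 CPM in WT mice. The WT mice were within a narrow range, and all 3 mutants lay above it, mouse 2 the furthest. The log2 fold change was 1.28 ± 0.39 (edgeR unadjusted p 0.0113, adjusted p 0.5498) and 0.73 without mutant mouse 2. The 250 bases before its RefSeq start (chr2:32982084-32982333, minus strand, GRCm38.p6) hold CCAAT at 4 places over both strands, 1 pair of which overlap:
Slc2a8: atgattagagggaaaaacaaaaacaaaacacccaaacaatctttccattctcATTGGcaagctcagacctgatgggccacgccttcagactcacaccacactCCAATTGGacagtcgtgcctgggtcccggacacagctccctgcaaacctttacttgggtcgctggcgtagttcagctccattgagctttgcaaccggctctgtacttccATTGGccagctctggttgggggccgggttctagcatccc

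The remaining sugar families held few differences. Slc37a4, the glucose-6-phosphate transporter of the endoplasmic reticulum, lay at 39.7, 59.9 and 31.4 CPM in mutants and 30.4, 33.3 and 35.1 CPM in WT mice, which overlapped. Its relative Slc37a3 was scarce and did not overlap, at 5.76, 7.61 and 7.26 CPM and 5.63, 4.36 and 4.48 CPM. Slc50a1 was highest in mouse 2 of both genotypes, at 92.9, 136 and 94.8 CPM in mutants and 114, 163 and 115 CPM in WT mice (-0.28 ± 0.24). In family 5, the multivitamin transporter Slc5a6 had a log2 fold change of -0.16 ± 0.35 and the inositol transporter Slc5a3, whose exons overlap Mrps6, one of -0.49 ± 0.37. The 16 genes of the sugar families were evenly split, with 8 positive and 8 negative log2 fold changes and a median of 0.02, and edgeR's unadjusted p was under 0.05 for 1 of each direction.

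Of the monocarboxylate transporters, family 16, 1 of 9 genes had an unadjusted p under 0.05 in edgeR, against 6.56% of all genes tested, and it was lower. Summed over its 9 members the level was 62.4 ± 7.85 FPKM in mutants and 90.1 ± 12.4 FPKM in WT mice (SD, n = 3 each), and 6 of the 9 log2 fold changes were negative, the median being -0.35 against 0.00 for all genes tested. That median lay between -0.50 (without WT mouse 2) and -0.17 (without mutant mouse 2) when single mice were left out. The median deviation of the 9 genes from their WT mean was -0.03, -0.005 and -0.64 in mutant mice 1, 2 and 3. Mutant mice 1 and 2 were thus near the WT level by this measure, and only mutant mouse 3 was well below it. Much of the summed difference came from 1 gene. Slc16a11, which encodes MCT11, a monocarboxylate transporter reported to carry pyruvate, lies at chr11:70212752-70216417 (GRCm38, plus strand). In FPKM it read 7.2, 13.7 and 11.6 in mutants and 31.7, 25.5 and 23.5 in WT mice, and in CPM 12.7, 26.7 and 19.9 and 52.7, 44.9 and 39.98. All 3 mutants lay below all 3 WT mice, and mutant mouse 1 was the lowest. The log2 fold change was -1.21 ± 0.30 with an unadjusted p of 0.00356 and an adjusted p of 0.449 in edgeR and an adjusted p of 0.0308 in DESeq2, and it stayed between -1.49 and -0.98 over all alternatives run. The 250 bases before its RefSeq start (chr11:70213660-70213909, plus strand, GRCm38.p6) hold 1 CCAAT, on the opposite strand. The RefSeq start lies inside the gene span given above, which follows the outermost GENCODE transcript, and the same holds by fewer bases for Slc7a8:
Slc16a11: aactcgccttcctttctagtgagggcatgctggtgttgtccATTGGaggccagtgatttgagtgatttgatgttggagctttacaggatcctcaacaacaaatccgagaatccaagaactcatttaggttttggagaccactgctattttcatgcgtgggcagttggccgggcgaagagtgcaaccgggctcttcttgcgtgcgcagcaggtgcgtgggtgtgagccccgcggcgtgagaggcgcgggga

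The gene next to Slc16a11 and the lactate carriers were measured in the same libraries. Slc16a13, which encodes MCT13, ends 371 bases from Slc16a11 and is read from the other strand towards it. It lay at 26.003, 15.3 and 17.4 CPM in mutants and 31.6, 20.9 and 30.1 CPM in WT mice, overlapping only at mutant mouse 1, with a log2 fold change of -0.49 ± 0.29. Slc16a1, the widespread lactate and pyruvate carrier MCT1, was at 134, 81.2 and 131 CPM in mutants and 140.3, 109.6 and 167 CPM in WT mice (-0.27 ± 0.26). Slc16a3, MCT4, the lactate exporter of glycolytic cells, went the other way, at 12.3, 19.2 and 15.3 CPM and 9.26, 12.4 and 11.5 CPM, with a log2 fold change of 0.50 ± 0.29 and overlapping values. None of these 3 reached an unadjusted p under 0.05 in edgeR.

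**Figure D4:**
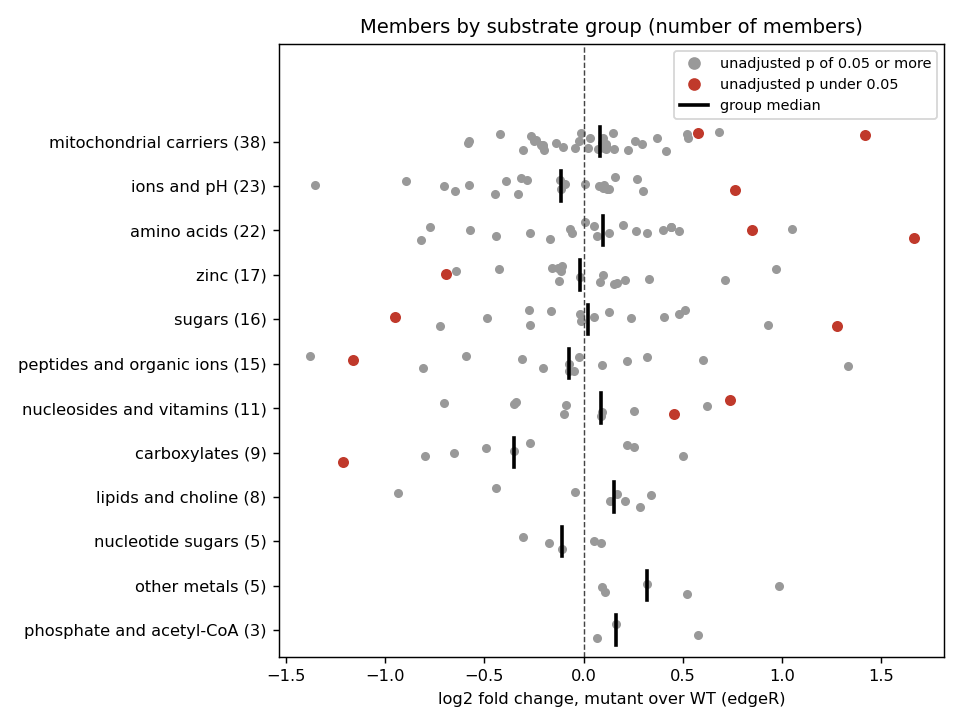
Log2 fold change, mutant over WT, of each of the 172 genes (points) by substrate group, with the number of genes in brackets, the group median as a black bar and red for an unadjusted p under 0.05 in edgeR. Medians lie between -0.35 for carboxylates and 0.32 for other metals, with ranges of -0.50 to -0.17 and 0.19 to 0.50 when single mice are left out. Red points fall to the right in the mitochondrial, amino acid, nucleoside and vitamin, and ion and pH groups. They fall to the left for zinc, carboxylates, and peptides and organic ions, and to both sides for sugars.

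Within the mitochondrial family the most abundant carriers differed little between the genotypes. The log2 fold changes of Slc25a5, Slc25a3, Slc25a4, Slc25a39 and Slc25a1 were 0.23 ± 0.24, 0.30 ± 0.28, 0.03 ± 0.25, 0.02 ± 0.25 and 0.09 ± 0.20, and in the first 4 the mouse 2 libraries were the 2 highest. The signs for Slc25a4 and Slc25a39 turned under upper-quartile scaling. The summed FPKM of the family was 2127 ± 232 in mutants and 2069 ± 207 in WT mice (SD, n = 3 each). Slc25a38, which brings glycine into mitochondria for haem synthesis, lay at 18.8, 20.4 and 29.7 CPM in mutants and 22.4, 27.4 and 31.5 CPM in WT mice, and Slc25a33, a pyrimidine nucleotide carrier, at 10.6, 15.7 and 16.02 CPM and 13.5, 11.8 and 10.1 CPM. Both overlapped between the genotypes.

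The carriers of family 25 that separated the genotypes were of middle or low abundance. Slc25a16, a carrier linked to coenzyme A supply, was at 26.003, 41.5 and 33.99 CPM in mutants and 23.96, 20.4 and 23.5 CPM in WT mice (0.58 ± 0.24, edgeR unadjusted p 0.0426, adjusted p 0.737). Slc25a47, a carrier known from liver, was at 3.12, 5.42 and 4.82 CPM in mutants and 1.503, 0.975 and 2.48 CPM in WT mice (1.42 ± 0.53, edgeR unadjusted p 0.0288, adjusted p 0.696). All mutants were above all WT mice in both, although the second gene was near the count threshold and holds Mir345 in an exon. Slc25a47 starts 162 bases from Slc25a29, a basic amino acid carrier on the other strand, which was at 7.54, 4.71 and 7.097 CPM in mutants and 3.88, 4.03 and 5.55 CPM in WT mice (0.52 ± 0.39). Slc25a30 and Slc25a53 were also higher without overlap, with log2 fold changes of 0.68 ± 0.33 and 0.53 ± 0.25. Lower without overlap were Slc25a27 at 7.64, 5.42 and 6.21 CPM against 7.91, 12.4 and 8.66 CPM, Slc25a45 (-0.30 ± 0.18) and Slc25a43 (-0.58 ± 0.42). Of the 38 members 22 had a positive log2 fold change, edgeR's unadjusted p was under 0.05 for 2 higher and 0 lower ones (3.43% and 3.13% of all genes tested, of which 50.3% were positive), and the median was 0.08.

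Ion and pH carriers were led by a calcium exchanger of mitochondria. Slc24a6, annotated in GRCm38 as Slc8b1, encodes NCLX, which returns calcium from the matrix in exchange for sodium. It was at 35.05, 37.03 and 47.6 CPM in mutants and 22.2, 27.1 and 21.1 CPM in WT mice. The lowest mutant exceeded the highest WT mouse, and the log2 fold change was 0.77 ± 0.22 (edgeR unadjusted p 0.00916, adjusted p 0.509), with a range of 0.62 to 1.02 over all alternatives run. Slc26a11, an anion exchanger, was lower without overlap at 26.003, 22.9 and 22.5 CPM against 35.8, 29.8 and 31.5 CPM (-0.44 ± 0.20, edgeR unadjusted p 0.06095). Slc9a5, a sodium-proton exchanger of low abundance here, was also lower without overlap, with a log2 fold change of -0.58 ± 0.43.

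Other volume and pH regulators overlapped between the genotypes. The bicarbonate importer Slc4a7 lay at 45.2, 59.9 and 41.2 CPM in mutants and 37.8, 39.7 and 56.4 CPM in WT mice, and the sodium-potassium-chloride importer Slc12a2 at 23.6, 10.7 and 27.4 CPM and 31.3, 16.9 and 27.05 CPM. The potassium-chloride exporter Slc12a7 read 38.4, 14.97 and 39.4 CPM in mutants and 74.3, 21.8 and 55.1 CPM in WT mice, lowest in mouse 2 of both genotypes, with a log2 fold change of -0.70 ± 0.50. Slc24a5, a potassium-dependent sodium-calcium exchanger known from pigment cells, was the only member that reached 50 counts in 3 libraries of 1 genotype alone, with counts of 12, 32 and 49 in mutants and 164, 52 and 52 in WT mice. In the 23 genes of these families the median was -0.11, and edgeR's unadjusted p was under 0.05 for 1 higher and 0 lower ones.

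Zinc and other metal carriers gave 1 gene of each direction without overlap. Slc39a13, which exports zinc from the early secretory pathway, was lower at 18.7, 9.23 and 13.97 CPM in mutants against 24.2, 22.4 and 21.3 CPM in WT mice (-0.69 ± 0.30, edgeR unadjusted p 0.0494, adjusted p 0.761). Its exons overlap those of Psmc3 on the other strand, and the strand setting of the counting is not given, so reads of the pair may be mixed. Slc30a1, the zinc exporter of the plasma membrane, was higher at 7.05, 12.6 and 6.598 CPM against 3.83, 6.502 and 3.06 CPM (0.97 ± 0.45, edgeR unadjusted p 0.0618). The abundant zinc carriers Slc39a7 and Slc30a5 had log2 fold changes of 0.10 ± 0.17 and 0.15 ± 0.22. Slc39a10, a zinc importer needed by lymphocytes, was low in mouse 2 of both genotypes and had a log2 fold change of -0.65 ± 0.41. Over the 17 zinc carriers the median was -0.02, and edgeR's unadjusted p was under 0.05 for 0 higher and 1 lower.

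The copper, magnesium and haem carriers had positive log2 fold changes in 5 of 5 genes, with a median of 0.32, and none had an unadjusted p under 0.05 in edgeR. The copper importer Slc31a1 lay at 64.8, 72.3 and 67.3 CPM in mutants and 51.3, 44.7 and 67.8 CPM in WT mice, and its neighbour Slc31a2 at 17.8, 14.9 and 24.8 CPM and 15.4, 11.2 and 13.6 CPM. In Slc31a1 only WT mouse 3 was within the range of the mutants. Slc48a1, which moves haem out of endosomes, lay at 149.7, 239.8 and 177 CPM and 182, 189 and 155 CPM. Slc41a3 rested on mouse 2, at 8.99, 46.8 and 11.4 CPM in mutants and 9.31, 16.97 and 7.64 CPM in WT mice.

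Of 11 nucleoside and vitamin carriers, 3 were higher and 0 lower without overlap, where 6.89% and 7.67% of all genes tested were so. Slc28a2 encodes CNT2, which takes up purine nucleosides with sodium. It lay at 95.7, 108 and 136 CPM in mutants and 77.2, 47.8 and 77.9 CPM in WT mice, with a log2 fold change of 0.74 ± 0.25 (edgeR unadjusted p 0.0182, adjusted p 0.612) and a range of 0.54 to 1.00 over all alternatives run. Slc52a2, a riboflavin transporter, showed little spread, at 43.3, 48.8 and 44.02 CPM in mutants and 31.4, 33.7 and 34.1 CPM in WT mice (0.46 ± 0.18, edgeR unadjusted p 0.0381, adjusted p 0.724). Slc19a1, the reduced folate carrier, separated the genotypes only narrowly, at 124, 139 and 139 CPM and 124, 97.3 and 115 CPM (0.26 ± 0.18). The more abundant equilibrative transporter Slc29a1 did not, at 266, 262 and 234 CPM and 256, 273 and 288 CPM (-0.10 ± 0.17), and its relative Slc29a2 lay at 13.4, 23.6 and 17.9 CPM and 14.1, 8.91 and 12.5 CPM (0.63 ± 0.32, edgeR unadjusted p 0.08402). Slc46a1, the proton-coupled folate transporter, was scarce and had a count of 0 in mutant mouse 2, and Slc46a3, a lysosomal relative, was at 7.11, 2.97 and 12.3 CPM and 11.7, 7.803 and 8.999 CPM. The 11 genes had a median of 0.09, which ranged from -0.10 to 0.23 when single mice were left out.

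Phosphate importers of family 20 also serve as receptors for retroviruses. Slc20a2 was higher without overlap, at 43.1, 60.3 and 40.1 CPM in mutants and 34.8, 23.9 and 37.6 CPM in WT mice (0.58 ± 0.26, edgeR unadjusted p 0.0587), and its exons overlap those of Smim19 on the other strand. Slc20a1 overlapped, at 39.4, 27.5 and 38.8 CPM and 35.4, 26.1 and 39.3 CPM.

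Lipid and choline carriers gave no gene without overlap. Slc44a2 lay at 447, 327 and 409 CPM in mutants and 414, 180.1 and 378 CPM in WT mice. Slc44a1, the choline transporter, lay at 14.1, 7.42 and 12.8 CPM and 14.2, 4.88 and 12.2 CPM. Both genes were lowest in mouse 2 of each genotype, with WT mouse 2 the lowest of all. Slc27a1 lay at 67.8, 44.4 and 52.9 CPM in mutants and 80.4, 60.8 and 83.3 CPM in WT mice (-0.44 ± 0.23, edgeR unadjusted p 0.08998), and Slc27a6, a related fatty acid transporter, had a log2 fold change of -0.94 ± 0.56. The 8 genes had a median of 0.15.

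Among the carriers of peptides, amines and organic ions, Slc22a17 had the smallest p-value. It encodes the lipocalin-2 receptor, which takes up iron-binding lipocalin, and lay at 7.75, 8.71 and 16.2 CPM in mutants and 25.6, 17.2 and 30.5 CPM in WT mice. The highest mutant, mouse 3, was just below the lowest WT mouse, mouse 2. The log2 fold change was -1.16 ± 0.37 (edgeR unadjusted p 0.0135, adjusted p 0.5698). Slc22a4, which imports ergothioneine, was scarce and higher without overlap, at 5.17, 6.26 and 3.16 CPM against 0.6305, 2.73 and 2.43 CPM (1.33 ± 0.63, edgeR unadjusted p 0.0661). Its neighbour Slc22a21, which lies 2790 bases away on the same strand, was at 1.83, 2.52 and 4.77 CPM in mutants and 5.29, 4.49 and 3.99 CPM in WT mice (-0.59 ± 0.49), the opposite direction. Near-identical relatives can share reads in such clusters, and how reads with several map positions were counted is not given.

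Slc15a4, the endolysosomal histidine and peptide transporter on which Toll-like receptors of that compartment depend, was higher without overlap, at 75.6, 61.03 and 62.2 CPM in mutants and 50.2, 56.6 and 52.6 CPM in WT mice (0.32 ± 0.18, edgeR unadjusted p 0.121). Slc17a9, the vesicular nucleotide transporter, was lower without overlap with a log2 fold change of -0.31 ± 0.20. The organic cation transporter Slc22a3, known in basophils as a histamine and serotonin carrier, lay at 48.6, 62.9 and 81.5 CPM in mutants and 53.6, 51.6 and 90.7 CPM in WT mice. The vesicular monoamine transporter Slc18a2 was at 22.9, 29.1 and 46.96 CPM and 39.8, 31.8 and 30.7 CPM. Both overlapped. In the nucleotide-sugar subfamily, Slc35a1, the CMP-sialic acid transporter of the Golgi, was lower without overlap at 36.1, 49.03 and 53.1 CPM against 58.002, 58.8 and 54.2 CPM (-0.31 ± 0.21), and Slc35a4 had a log2 fold change of 0.05 ± 0.18.

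The 4 genes with the largest spread among the mutants were each lowest in mouse 2. Slc18a1, the second vesicular monoamine transporter, lay at 29.02, 0.645 and 16.02 CPM in mutants and 47.2, 26.1 and 45.97 CPM in WT mice. The log2 fold change was -1.38 ± 0.92 (edgeR unadjusted p 0.1702). Slc27a2, a very-long-chain fatty acid transporter, lay at 23.96, 0.774 and 13.9 CPM in mutants and 11.8, 10.4 and 11.2 CPM in WT mice. Mutant mice 1 and 3 were above all WT mice there and mouse 2 was nearly at 0, so that the log2 fold change of 0.21 ± 0.86 changed sign with the scale used. Mouse 2 was also the lowest mutant in Slc22a23, at 3.12, 0.258 and 2.22 CPM in mutants and 3.59, 3.38 and 2.92 CPM in WT mice, and in Slc46a1, at 1.62, 0 and 3.66 CPM and 3.35, 2.47 and 2.82 CPM, but there mutant mice 1 and 3 did not both exceed all WT mice. Leaving out mutant mouse 2 also brought the log2 fold changes of several genes nearer to 0, to 0.62 for Slc30a1, 0.37 for Slc20a2, 0.40 for Slc29a2, 0.32 for Slc16a3, 0.17 for Slc3a2, 0.11 for Slc37a4, -0.19 for Slc38a9, -0.23 for Slc5a3, -0.34 for Slc39a10, -0.37 for Slc12a7 and -0.82 for Slc18a1. Other mice weighed as much in a few genes. Without WT mouse 1 the values were -0.32 for Slc12a7, -0.38 for Slc39a10 and -0.39 for Slc27a6, without WT mouse 2 0.24 for Slc7a5 and 0.19 for Slc31a1, and without mutant mouse 1 -0.76 for Slc16a13, -0.16 for Slc35a1 and 0.21 for Slc15a4.

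The mouse 2 libraries of the 2 genotypes also moved together. Both were the 2 lowest of the 6 for 44 of the 172 genes (25.6%, against 21.6% of all genes tested) and the 2 highest for 15 (8.72%, against 20.6%). The genes in which they were lowest had a median length of 3718.5 bases and those in which they were highest one of 1919 bases, against 3121.5 bases for the whole set. Over the 172 genes, the Spearman correlation of gene length with the difference between the mouse 2 libraries and the other 4 was -0.364, a description in which all genes share the same 6 libraries. Slc12a7 and Slc39a9 were among the lowest, and Slc25a3 and Slc25a4 among the highest. The part of transcript length, RNA quality or shared handling in this pattern was not tested.

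**Figure D5:**
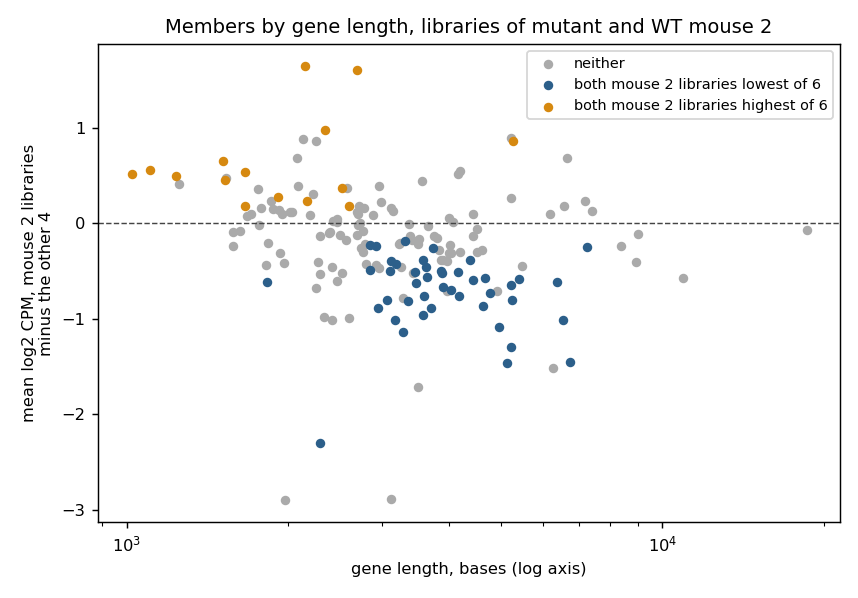
Mean log2 CPM of the mouse 2 libraries of both genotypes minus that of the other 4 libraries, against gene length in bases (log axis), for the 172 genes. The 44 genes in which both mouse 2 libraries were lowest (blue) lie towards greater length than the 15 in which both were highest (orange), with median lengths of 3718.5 and 1919 bases.

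A few members differ from the rest in what their symbol names or where they lie. The symbols of 5 members, Slc9a3r1, Slc9a3r2, Slc2a4rg-ps, Slc4a1ap and Slc7a6os, name another gene, such as a scaffold or a neighbour. Of these, Slc2a4rg-ps, a pseudogene by its symbol, was lower at 3.28, 4.13 and 5.77 CPM in mutants against 6.94, 10.7 and 7.93 CPM in WT mice (-0.95 ± 0.38, edgeR unadjusted p 0.0379, adjusted p 0.724). Slc9a3r1 and Slc4a1ap had log2 fold changes of 0.10 ± 0.17 and 0.10 ± 0.22. On the X chromosome lay 9 members, with log2 fold changes of -0.80 to 0.53 and a median of -0.11. Of these, 1 gene was without overlap in each direction, against 6.89% higher and 7.67% lower of all genes tested. Exons of 49 members overlap an exon of another gene, for 8 of them on the same strand.

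At the threshold, the third-highest count was 52 for Slc24a5, 55 for Slc38a6 and 57 for Slc22a4 and Slc5a11, just inside. Just outside were Slc1a4 with 40, Slc45a3 with 39, Slc6a15 with 35 and Slc29a4 with 32. Of the 172 genes, 151 had at least 50 counts in all 6 libraries and 11 in 5.

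The promoter sequences of the set can be compared with those of other genes. Windows of the 250 bases before the start were at hand for 130 of the 172 genes in the RefSeq table (GRCm38.p6). The letters GGGCGG, on either strand, were in 65.4% of them, against 32.7% of all 32851 windows. Those windows include genes without expression here, and among the windows of 8383 genes that reached the same count threshold the share was 60.55%. CCAAT was in 34.6% of the set's windows, 33.9% of all and 37.05% of those at the threshold. CACGTG, the palindromic E-box, was in 13.1%, 6.02% and 8.83%, and TGATGNAA, the C/EBP-ATF response element, in 2.31%, 3.45% and 1.825%. A match to these letters is a description and not a binding site.

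Carriers that do not bear Slc symbols of this form were measured in the same fit. Of 25 tested, 18 had a positive log2 fold change, edgeR's unadjusted p was under 0.05 for 5 higher and 0 lower ones (3.43% and 3.13% of all genes tested, of which 50.3% were positive), and the median was 0.22. The smallest p-value belonged to Unc93b1, which carries Toll-like receptors to endolysosomes, at 349, 407 and 326 CPM in mutants and 222, 216 and 245 CPM in WT mice (0.66 ± 0.18, edgeR unadjusted p 0.00578, adjusted p 0.4904). The other 4 were the membrane transporters Mfsd10, Slco3a1, Slco4a1 and Spns3, with log2 fold changes of 0.62, 0.44, 0.43 and 0.50. Of 10 partner and regulator genes, such as the MCT chaperone Bsg and the glucose uptake inhibitor Txnip, 4 had a positive log2 fold change, none had an unadjusted p under 0.05 in edgeR in either direction, and the median was -0.03.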

How the data were processed

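LSK cells of 6 mice gave 1 stranded total-RNA library each (labels' protocols). The submitters' processing notes name the build mm10 and the tools STAR 2.5.2b, featureCounts 1.5.0-p3 and bcl2fastq 2.17. The sources used here do not give the annotation, the strand setting or the handling of reads with several map positions. For each library the authors deposited raw counts per gene, as whole numbers, and FPKM values, which equalled the deposited counts scaled by length and library total within 0.005.

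The counts were fitted over all genes with edgeR 4.0.16 (R 4.3.3; quasi-likelihood test, two-sided, TMM scaling, filterByExpr by genotype with a minimum count of 10, genotype as the only term), with Benjamini-Hochberg adjustment over 12653 genes. Errors of log2 fold changes are standard errors worked back from the test: the size of the change divided by the square root of its F statistic. CPM uses the TMM-scaled totals. The fit was tested on simulated data. The 20 alternatives covered other scalings, filters, tools (DESeq2 1.42.0, limma 3.58.1), log2 FPKM, blocking, sex, each mouse left out and other definitions of the set. No pair of libraries agreed within sampling noise.

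Genes named were the 10 most abundant members, the 12 with the smallest p per direction, the most abundant and lowest-p member of each family of at least 3, a list of well-known members, the X-linked and threshold members as counts and ranges, and the 4 with the largest spread among mutants; a few others without overlap or next to these were chosen after their values were seen. Substrate groups follow the family number, so single members may carry something else. The members and all lists were chosen with earlier results of these data known. Positions are from GENCODE M21 (GRCm38). Protein sequences were not used here. The values of 2 members that the naming rule picks are not reported here.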

Additional observations from a re-analysis of the deposited data

How the results depend on the processing

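Of the 79 named members, 53 kept the sign of their log2 fold change in all 17 alternatives that refit single genes, and the other 26 turned in at least 1. No member was called by edgeR or limma under any setting; DESeq2 called 1 higher (Slc7a8) and 1 lower (Slc16a11). At an unadjusted p under 0.05 in edgeR, 5 members were higher with upper-quartile scaling (all genes 2.81%) against 8 in the reported fit (all genes 3.43%). With sex, read from Y-linked counts, as a covariate the genotype term rests on mutant mouse 3 alone against the 3 WT mice, that mouse being assumed to vary like the others; it is no adjustment for sex, and gave 4 higher and 2 lower, against 8 and 4. The shares of all genes fell too in that fit, to 1.53% higher and 1.24% lower, from 3.43% and 3.13%. The fall in these counts was thus not particular to the members. Leaving out each mouse in turn gave 3 to 9 higher and 1 to 7 lower at that p, where all genes gave 2.08% to 3.92% and 1.73% to 4.39%. In these fits 23 to 30 were higher without overlap, where all genes gave 8.94% to 16.6%. Lower were 16 to 31, where all genes gave 9.53% to 17.6%. The share of higher members was below that of all genes only without WT mouse 2 (14.5%, against 16.6%). The medians ran from -0.085 to 0.11. With a replicate block 12 were higher (6.98%, against 6.96% of all genes) and 12 lower (6.98%, against 6.5%). Deviations of same-numbered mice correlated at 0.110, 0.344 and 0.0567, so the numbers were not taken to pair the mice, and only mouse 2 of the mutants correlated best with its own number.

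The sign turned for the following genes. With RLE scaling Slc2a3 was at 0.0015, with DESeq2 at 0.0017, with limma-voom at 0.043 and with the replicate block at 0.059. Slc27a2 was at -0.69 with limma-voom and -0.47 with the replicate block. Upper-quartile scaling gave Slc25a4 -0.014, Slc25a39 -0.019 and Slc43a3 -0.033. Log2(FPKM + 1) and log2(FPKM + 0.1) gave Slc20a1 -0.0070 and -0.00854, Slc25a4 -0.033 and -0.033, Slc25a39 -0.078 and -0.078, Slc27a2 -0.33 and -0.77, Slc35a4 -0.017 and -0.017, Slc43a3 -0.072 and -0.0736. The fit with sex as a covariate, mutant mouse 3 against WT, gave Slc2a3 0.44, Slc4a7 -0.11, Slc5a6 0.37, Slc7a6 0.019, Slc9a3r1 -0.053, Slc12a2 0.13, Slc18a2 0.46, Slc22a3 0.32, Slc25a1 -0.20, Slc25a4 -0.16, Slc25a38 0.13, Slc25a39 -0.33, Slc37a4 -0.069, Slc38a2 0.27, Slc43a1 0.044, Slc43a3 -0.19, Slc46a1 0.34 and Slc46a3 0.37. Leaving out each mouse gave ranges across 0 for Slc2a3 -0.30 to 0.39, Slc4a1ap -0.019 to 0.24, Slc18a2 -0.39 to 0.15, Slc20a1 -0.083 to 0.22, Slc22a3 -0.23 to 0.29, Slc25a1 -0.032 to 0.22, Slc27a2 -0.61 to 0.77, Slc43a3 -0.054 to 0.10, Slc44a1 -0.20 to 0.42, Slc4a7 -0.046 to 0.33, Slc5a6 -0.53 to 0.10, Slc7a6 -0.15 to 0.011, Slc12a2 -0.55 to 0.022, Slc25a4 -0.14 to 0.27, Slc25a5 -0.0065 to 0.36, Slc25a39 -0.23 to 0.18, Slc38a2 -0.28 to 0.19, Slc46a3 -0.91 to 0.028, Slc48a1 -0.10 to 0.25, Slc35a4 -0.061 to 0.11 and Slc44a2 -0.0060 to 0.50 The median of a substrate group crossed 0 in at least 1 such setting for sugars (-0.14 to 0.28), mitochondrial carriers (-0.00051 to 0.12), nucleotide sugars (-0.16 to 0.11), zinc (-0.057 to 0.15), ions and pH (-0.30 to 0.012), nucleosides and vitamins (-0.097 to 0.23), phosphate and acetyl-CoA (-0.028 to 0.29) and lipids and choline (-0.11 to 0.24). The cause was not tested. Slc5a11, near the threshold of 50 counts, read 57, 10 and 61 counts in mutants and 65, 49 and 46 in WT mice. The part of counting error in such members, Slc24a5 among them, was not tested.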
